A study of Mus musculus with 30 samples.

Results

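Iron and heme handling genes were followed in CD11b+ microglia of the mouse brain, from late embryo to young adult and after depletion and repopulation. Of the 10 genes chosen by name, 8 had values, in 10 transcript rows of the 14225 in the table (ceruloplasmin had 3). They were heme oxygenase 1 (Hmox1), biliverdin reductase B (Blvrb), ferritin light chain (Ftl1), the transferrin receptor (Tfrc), transferrin (Trf), ceruloplasmin (Cp), iron regulatory protein 2 (Ireb2) and hematopoietic prostaglandin D synthase (Hpgds). Fth1 and Steap3 were not analysed here. Each of the 10 rows passed the authors' filter on low values and was tested whatever its level.

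The cells came from whole brains of C57BL/6J mice, taken up with magnetic beads against CD11b, and gave 30 poly(A) RNA-seq libraries in 10 groups of 3. Dams had received saline (Saline) or the double-stranded RNA poly(I:C), which induces maternal immune activation (MIA), by intraperitoneal injection in mid-gestation. Offspring of both kinds were sampled at embryonic day 17 (E17) and at postnatal days 7, 20 and 60 (P7, P20, P60). At P60 a control-chow group (Saline + CTRL, MIA + CTRL) stood beside a microglial repopulation group (Saline + MG-REP, MIA + MG-REP), whose mice had eaten the CSF1R inhibitor PLX5622 in chow to deplete microglia and then control chow until microglia had returned. A library held 1 litter at E17, 3 pooled brains at P7 and 1 brain at P20 and P60, and the labels gave neither sex nor litter. CD11b is also carried by monocytes, neutrophils and border macrophages, and the CSF1R inhibitor acts on other CSF1R-dependent macrophages too, so a library is not microglia alone. Values are TPM, a share of all transcripts that is scaled for transcript length, and a change is given as log2 of TPM + 1 with its standard error.

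Heme taken up by a cell is opened by heme oxygenase, which frees its iron, and the bile pigment that results is reduced by biliverdin reductases. Iron also arrives bound to transferrin through the transferrin receptor, is stored inside the ferritin shell, and leaves through ferroportin, helped by ferroxidases such as ceruloplasmin that oxidize it for loading onto transferrin. Iron regulatory proteins, of which Ireb2 encodes one, bind hairpins called iron-responsive elements when iron is scarce: at the start of a ferritin mRNA they block translation, and in the tail of the transferrin receptor mRNA they protect it from decay. Macrophages of the body use these genes to recycle iron from red cells, and microglia are known to store iron in ferritin. Hpgds acts in a different pathway, turning prostaglandin H2 into prostaglandin D2, and is a gene well known in microglia.

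Among the member transcripts, 2 of 10 held the letters of an iron-responsive element, searched as a C, 5 bases, the loop CAGTGN and 5 bases that pair across it. They are shown because they are the sequences through which Ireb2 acts on both ends of the set, storage and uptake. The Ftl1 element lies in exon 1, in the 5′ UTR, at chr7:45459780-45459806 on the minus strand. The Tfrc elements lie in exon 19, in the 3′ UTR, on the plus strand, at chr16:32631220-32631246, chr16:32631599-32631625, chr16:32631664-32631690 and chr16:32631711-32631737 (GRCm38, GENCODE M21 transcripts). Sequences read 5′ to 3′ along the mRNA with the loop in capitals.
Ftl1 element: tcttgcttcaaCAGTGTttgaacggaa
Tfrc element 1: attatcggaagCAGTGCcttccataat
Tfrc element 2: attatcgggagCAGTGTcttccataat
Tfrc element 3: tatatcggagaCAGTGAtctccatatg
Tfrc element 4: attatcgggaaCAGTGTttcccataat
Of 14005 transcripts searched, 189 (1.35%) held at least 1 match, and Tfrc was the 1 transcript with 3 or more. The pattern is a description of letters and misses elements with other loops or bulges.

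Depth was estimated from the steps between low TPM values at 7990000 to 12820000 reads per library (median 10445000), so that 1 read on a transcript of 1 kb was worth 0.211 to 0.353 TPM. The estimate covers reads assigned to the 14005 transcripts with a known length, not all reads sequenced. Between 69.8% and 77.9% of values fell within 0.2 of a whole read on this estimate, so no count test was run. Microglial markers were high throughout, with 8 genes of a list of 9 summing to 16514 to 51828 TPM. The sums were lowest in embryonic, P7 and Saline + MG-REP libraries (24949 to 28543 TPM in the last, against 35859 to 51828 TPM in Saline + CTRL and 39931 to 44466 TPM in MIA + MG-REP). Libraries that stood apart were Saline + MG-REP library 2, whose neutrophil and monocyte markers (11 genes) summed to 5475 TPM against 91.7 and 367 TPM in libraries 1 and 3, Saline + MG-REP library 1 with the highest border macrophage sum at P60 (8 genes, 2373 TPM), and E17 MIA library 1 with a neuronal sum of 1148 TPM. Sex also differed between groups: the 6 libraries at P20 and the 6 of MG-REP had high Xist with Y-linked genes near 0, as did library 1 of each CTRL group, while CTRL libraries 2 and 3 showed the reverse. The labels do not say whether libraries of P7 to P60 came from separate litters, so p-values measure the spread between these libraries. In bulk RNA, fewer cells of a type and less RNA per cell cannot be told apart.

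Hmox1, the inducible heme oxygenase (chr8:75093618-75100593), fell from E17 to P60 by more than any other member. Saline libraries held 1263, 1376 and 1120.4 TPM at E17, 777, 638 and 583 TPM at P7, 476, 325 and 400.4 TPM at P20 and 280.4, 229.9 and 434 TPM at P60. The E17 libraries were all above the P7 libraries and these above the P20 libraries, whereas P20 and P60 overlapped. MIA libraries held 735, 1545 and 914 TPM at E17, 761, 589.5 and 458 TPM at P7, 325, 295 and 481 TPM at P20 and 188, 413 and 400.1 TPM at P60. In MIA, neighboring ages overlapped at each step. No single step passed the test in limma with all libraries, although the P7 to P20 step in MIA did without P7 library 3 (adjusted p = 0.039) or P20 library 3 (0.033). In Saline the changes were -0.92 ± 0.30 from E17 to P7 (adjusted p = 0.082) and -0.74 ± 0.30 from P7 to P20 (adjusted p = 0.055). Over the whole span, a contrast added after the values were seen, Hmox1 fell by 2.04 ± 0.30 (SE) in Saline (limma adjusted p = 5.39e-06) and by 1.68 ± 0.30 in MIA (adjusted p = 5.93e-05), which is 0.251 and 0.313 of the E17 mean. Among all transcripts 47.5% and 48.1% were called in these contrasts, so a call there is common. Of the 10 member rows, 8 were called in Saline and 9 in MIA. In 7 of 10 groups the library with the highest Hmox1 also had the highest sum of immediate early genes (11 genes). That sum was 17534 to 23173 TPM at E17 and 26927 to 51839 TPM in CTRL libraries. It was 16197.5 to 23044 TPM in Saline + MG-REP and 28765 to 38699 TPM in MIA + MG-REP. The bearing of this sum on the Hmox1 values was not tested.

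Blvrb, which reduces biliverdin and flavins (chr7:27447978-27465981), kept its embryonic level through P7 and then dropped. Saline libraries read 47.4, 47.8 and 39.9 TPM at E17 and 51.9, 51.6 and 46.1 TPM at P7, then 21.5, 32.0 and 24.8 TPM at P20 and 25.8, 22.9 and 27.0 TPM at P60. The highest P20 library was below the lowest P7 library. MIA libraries fell in the same window, from 59.5, 49.6 and 39.3 TPM to 31.8, 26.1 and 30.8 TPM. The P7 to P20 change was -0.93 ± 0.15 in Saline (limma adjusted p = 3.04e-05) and -0.71 ± 0.15 in MIA (adjusted p = 0.000525). Between 70.2 and 239 reads lay behind a Blvrb value by the depth estimate, far fewer than for Hmox1 (842 to 10380 reads).

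Ftl1, the light chain of ferritin (chr7:45457944-45459886), was the most abundant member at E17 and P7. Saline libraries held 3766, 4525 and 3605 TPM at E17, 3323, 2782 and 2779 TPM at P7, 1704, 1924 and 1813 TPM at P20 and 1836, 1550.2 and 1577 TPM at P60. Ftl1 fell by 0.70 ± 0.17 between P7 and P20 in Saline (limma adjusted p = 0.0019). MIA libraries went from 3042, 2680.5 and 1773 TPM at P7 to 1762, 1922 and 2029.6 TPM at P20, a change of -0.36 ± 0.17 that did not pass (adjusted p = 0.097). The lowest P7 MIA library, which was library 3, lay among the P20 values, and without it the change was -0.59 and passed (adjusted p = 0.0056). From E17 to P60 the fall was 1.26 ± 0.17 in Saline and 1.27 ± 0.17 in MIA (adjusted p = 1.29e-06 and 1.16e-06). Ferritin light chain has near-identical pseudogene copies in the mouse genome, and 355 of its 1340 annotated exon bases overlap a predicted gene on the other strand, so without strand some reads may be split or shared.

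**Figure D1:**
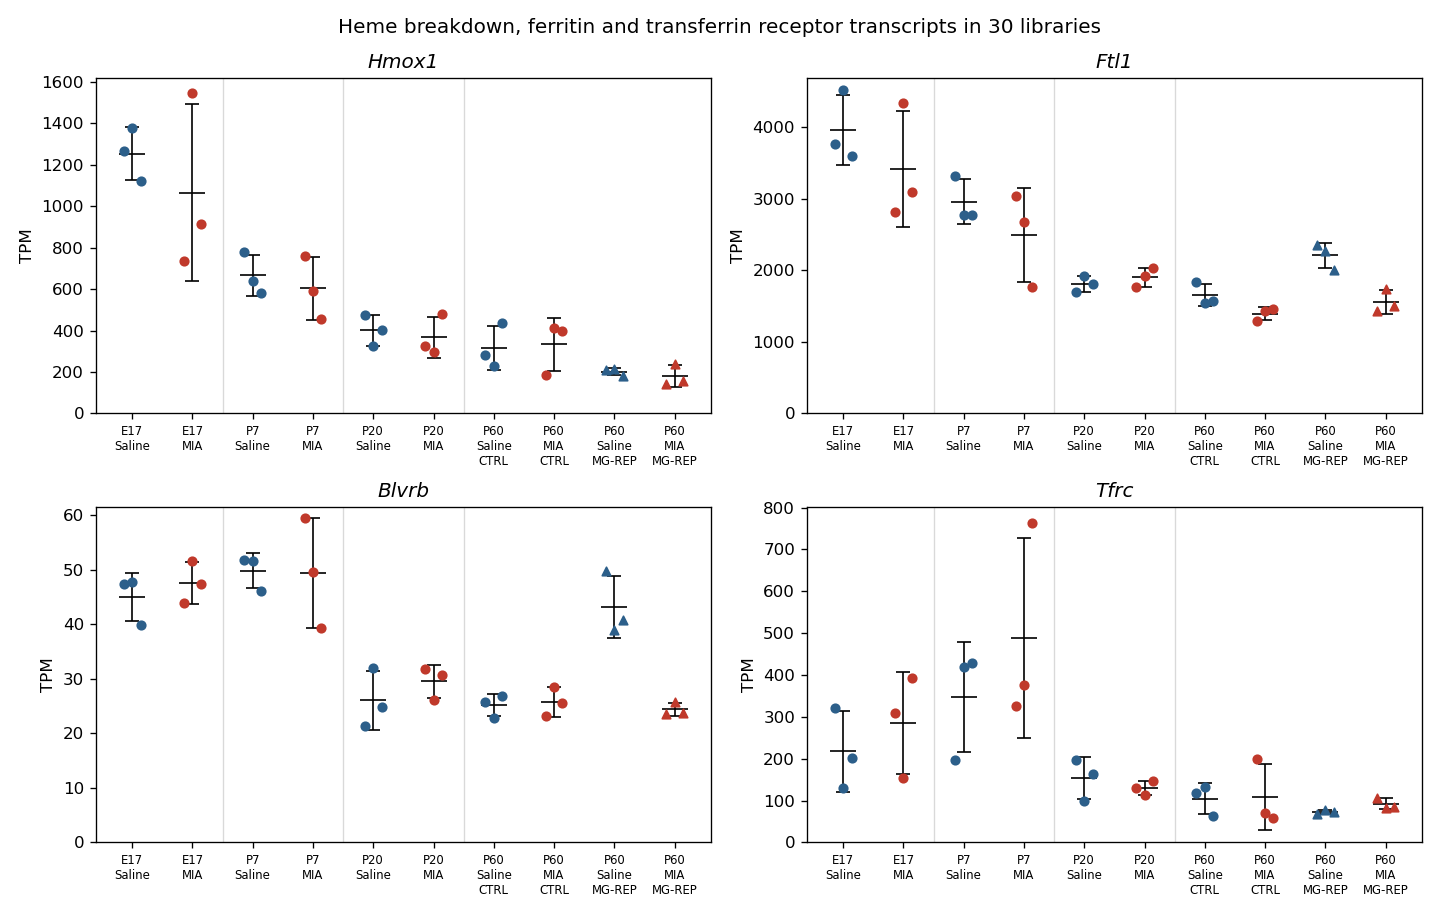
TPM of Hmox1, Ftl1, Blvrb and Tfrc (linear axes from 0) in each of the 30 libraries, with blue for Saline, red for MIA, circles for resident and triangles for repopulated microglia, and bars for the mean ± SD of 3 libraries. Hmox1 and Ftl1 are highest at E17, Blvrb is near 25 TPM from P20 except at 39.0 to 49.7 TPM in Saline + MG-REP, and Tfrc is highest and most scattered at P7.

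Tfrc, the receptor that brings transferrin-bound iron into the cell (chr16:32608896-32632794), had its highest means at P7 and the largest standard error of any member. Saline libraries held 320.5, 130.4 and 202 TPM at E17, 197, 420.4 and 428 TPM at P7, 198, 98.3 and 164 TPM at P20 and 119, 132 and 62.8 TPM at P60. MIA libraries held 309, 154 and 394 TPM at E17, 326, 376 and 764 TPM at P7, 129.6, 113 and 147 TPM at P20 and 200.1, 69.6 and 57.7 TPM at P60. From E17 to P7 the groups overlapped, and the changes of 0.69 ± 0.44 in Saline and 0.77 ± 0.44 in MIA did not pass (limma adjusted p = 0.421 and 0.498). In MIA every P7 library was above every P20 library, while in Saline the lowest at P7 lay just below the highest at P20. From P7 to P20 Tfrc fell by 1.81 ± 0.44 in MIA (limma adjusted p = 0.0023) and by 1.15 ± 0.44 in Saline (adjusted p = 0.043). The Saline call was lost when P20 library 2 or 3 or P7 library 2 or 3 was left out, with adjusted p up to 0.187. From E17 to P60 it fell in MIA by 1.50 ± 0.44 (adjusted p = 0.0066, 0.051 without MIA + CTRL library 3 and 0.0701 with the compared groups alone), and in Saline the change was -1.03 ± 0.44 (adjusted p = 0.057).

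Brain endothelial cells also carry the transferrin receptor, and their markers moved with Tfrc between libraries. In 9 of 10 groups the library with the highest Tfrc also had the highest sum of the endothelial list (6 of 6 genes in the table, 7 transcripts). In P7 MIA library 3, with 764 TPM of Tfrc, that sum was 2315 TPM against 1186 and 1407 TPM in the other two. In 7 of 10 groups the same library had the lowest sum of microglial markers, and in 5 of 10 the lowest Hmox1. The endothelial sum was 613 to 2972 TPM in E17 libraries and 1186 to 2315 TPM in P7 libraries. From P7 to P20, where Tfrc fell, it went in Saline from 1332 to 1460 TPM down to 635 to 1201 TPM, without overlap. In MIA it was 1186 to 2315 TPM at P7 and 1081 to 1339 TPM at P20. The part of endothelial RNA in the Tfrc values was not tested.

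**Figure D2:**
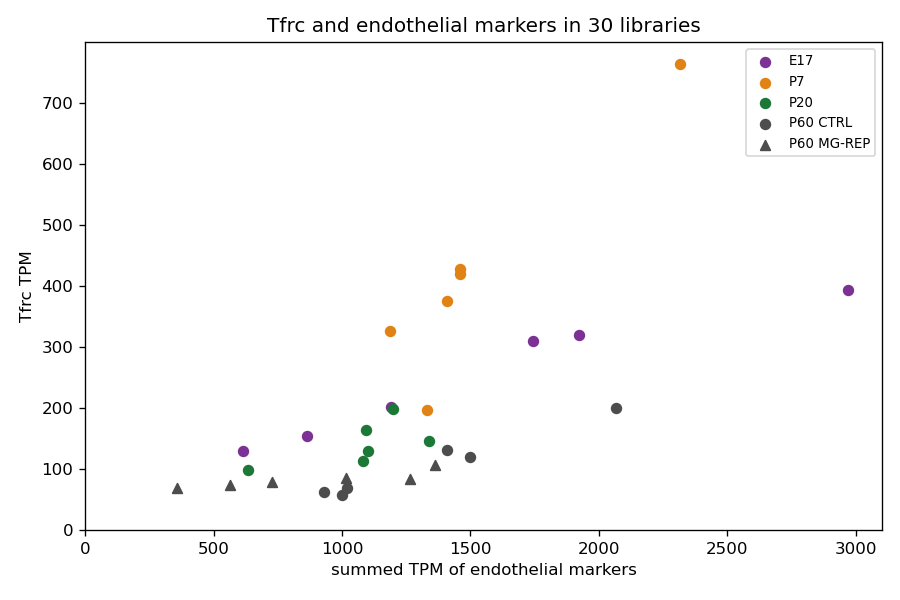
Tfrc (TPM, vertical) against the summed TPM of the endothelial markers (horizontal), 1 point for each of 30 libraries, colored by age, with triangles for MG-REP. Most P7 libraries lie above the others at like endothelial sums, while P7 Saline library 1 (197 TPM at a sum of 1332 TPM) is level with P20 Saline library 1 (198 TPM at 1201 TPM), and the highest points of E17 and P7 lie far to the right, at 2972 and 2315 TPM.

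Trf, the iron carrier itself (chr9:103208876-103230286), showed the opposite course. Saline libraries held 683, 818 and 798 TPM at E17 and 904, 868 and 864 TPM at P7, then 2129, 2136 and 1874 TPM at P20 and 2071, 2284 and 2454 TPM at P60. The lowest library after P7 was above the highest before it, in Saline and in MIA (664 to 904 TPM at P7, 2066 to 2125 TPM at P20). Trf rose by 1.22 ± 0.15 between P7 and P20 in Saline (limma adjusted p = 1.65e-06) and by 1.36 ± 0.15 in MIA (adjusted p = 3.09e-07), and at P20 it had passed Ftl1 in mean TPM in both. Oligodendrocytes are a known source of transferrin in brain, and their markers (8 of 9 genes) summed to 346 to 863 TPM at P7 and to 2238 to 6060 TPM at P20. In CTRL libraries at P60 the sum was down to 579 to 2412 TPM, and Trf was 1891 to 2454 TPM there. The part of oligodendrocyte RNA in the Trf values was not tested. A predicted readthrough gene shares 2108 of the 3320 annotated exon bases of Trf, on the same strand.

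Cp, a copper ferroxidase of plasma and of glial membranes (chr3:19956933-20009750), was the least abundant member and rose over the same window. Its 3 rows are transcripts of 1 gene that share exons and reads, so they are not independent. Transcript NM_001276250 in Saline read 1.26, 0.37 and 0.90 TPM at E17, 1.34, 1.55 and 1.32 TPM at P7, 7.74, 6.04 and 7.52 TPM at P20 and 10.8, 8.0 and 9.07 TPM at P60. Each P20 library stood above each P7 library, as in MIA (1.66 to 3.08 TPM, then 7.56 to 8.87 TPM). Between P7 and P20 it rose by 1.75 ± 0.23 in Saline (limma adjusted p = 2.71e-06) and by 1.60 ± 0.23 in MIA (adjusted p = 8.42e-06). NM_001276248 rose with it, by 1.29 ± 0.21 and 1.16 ± 0.21. NM_007752 rose in MIA by 0.82 ± 0.21 (adjusted p = 0.0044), and in Saline the change was 0.50 ± 0.21 (adjusted p = 0.074).

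For NM_007752 the earlier step passed in Saline, where it rose by 0.98 ± 0.21 from E17 to P7 (limma adjusted p = 0.0098), the 1 member row called of 10 in a contrast with 4.32% of all transcripts called. Values went from 0.49, 0.22 and 0.81 TPM to 1.89, 1.76 and 2.14 TPM, and the call was lost without E17 library 2 (adjusted p = 0.068). Depth limits this gene most: by the estimate 4.06 reads lay behind the lowest NM_007752 value and 6.93 behind the lowest NM_001276250 value, and the pseudocount of 1 TPM understates its folds. Choroid plexus also makes ceruloplasmin. Its markers (5 of 7 genes, almost all of it Ttr) summed in Saline to 1301 to 3447 TPM at P7 and 3532 to 7157 TPM at P20. In MIA they summed to 1940 to 10145 TPM and 3108 to 4628 TPM. They were lower at P60, 503 to 2669 TPM in CTRL libraries, where Cp NM_001276250 was 8.0 to 11.9 TPM. Astrocyte markers (7 of 7 genes) summed in Saline to 508 to 771 TPM at P7 and 1243 to 2201 TPM at P20. In MIA they were 468 to 1467 TPM, then 946 to 1160 TPM. CTRL libraries at P60 held 791 to 2912 TPM of them. The part of choroid plexus or astrocyte RNA in the Cp values was not tested.

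Ireb2, the iron sensor (chr9:54862658-54912534), had the smallest of the called changes with age. In Saline it read 103, 87.3 and 100.1 TPM at E17, 112, 92.3 and 96.6 TPM at P7, 106, 88.5 and 85.5 TPM at P20 and 70.4, 73.4 and 81.7 TPM at P60. The 12 P60 libraries, repopulated ones included, lay between 68.6 and 81.7 TPM, below the 18 younger ones (84.6 to 137 TPM). No step between neighboring ages passed the test, and from E17 to P60 it fell by 0.36 ± 0.13 in Saline (limma adjusted p = 0.022) and by 0.49 ± 0.13 in MIA (adjusted p = 0.0025, and 0.066 with the compared groups alone). The Saline call was lost when any of 4 libraries was left out, E17 library 1 or 3 or Saline + CTRL library 1 or 2, with adjusted p up to 0.081.

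Hpgds (chr6:65117293-65144981) had no called change with age. Saline means were 547 ± 45.2 TPM (SD, n = 3) at E17, 595 ± 33.6 at P7, 472 ± 66.6 at P20 and 515 ± 109 at P60. MIA means were 461 ± 122, 549 ± 81.6, 526 ± 40.9 and 457 ± 19.8 TPM. From E17 to P60 the change was -0.10 ± 0.16 in Saline and 0.02 ± 0.16 in MIA.

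**Figure D3:**
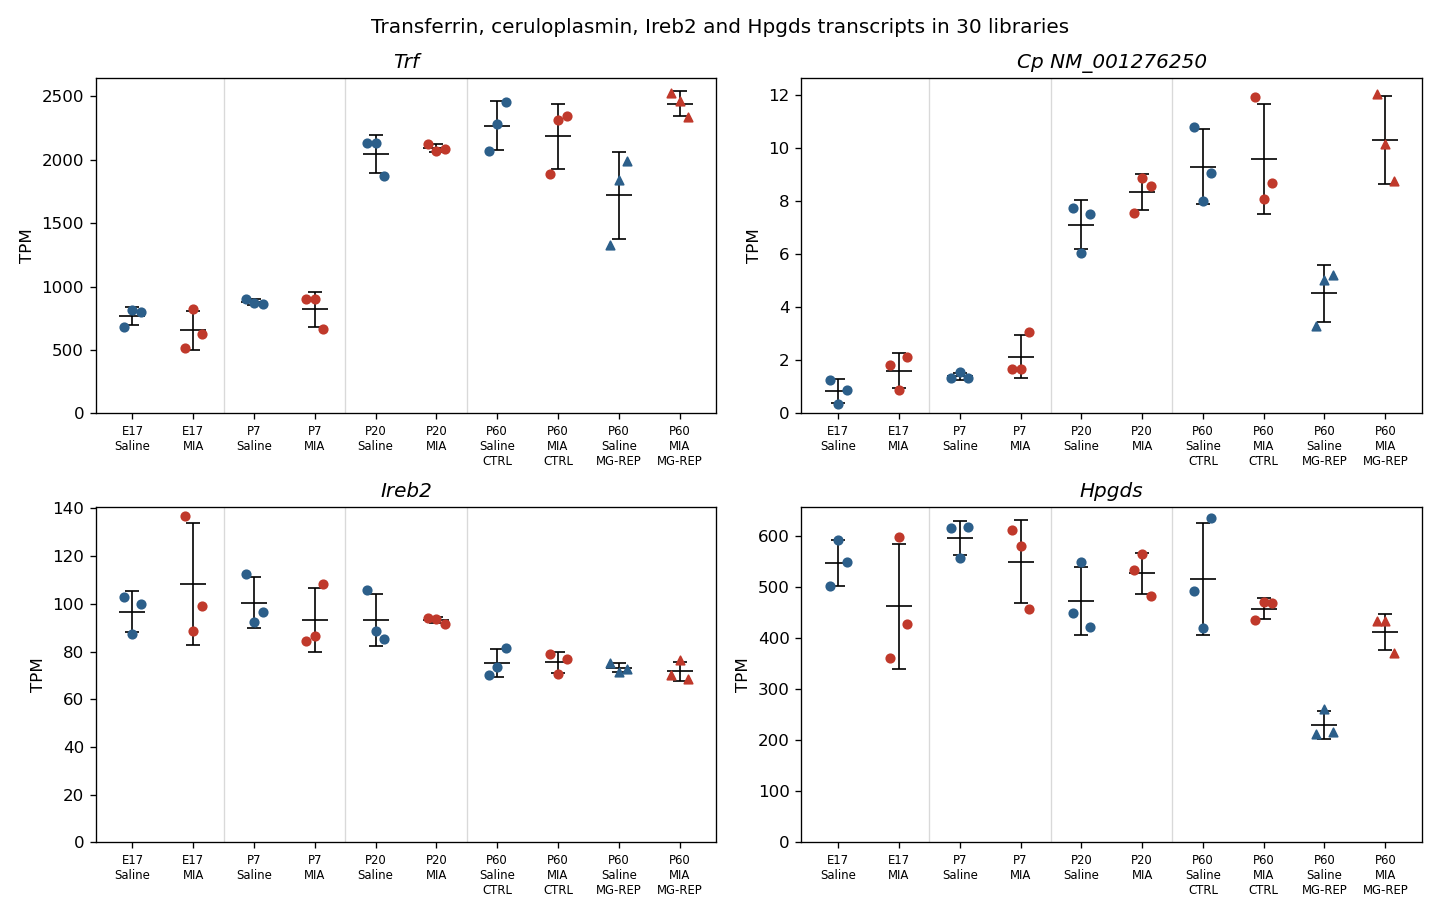
TPM of Trf, the Cp transcript NM_001276250, Ireb2 and Hpgds (linear axes from 0) in each of 30 libraries, with blue for Saline, red for MIA, circles for resident and triangles for repopulated microglia, and bars for the mean ± SD of 3 libraries. Trf and Cp step up between P7 and P20, and Hpgds is lowest in Saline + MG-REP, at 211 to 260.4 TPM.

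P7 to P20 was the step between neighboring ages with the most member calls. In Saline 6 of 10 member rows were called (Trf and 2 Cp rows higher, Blvrb, Ftl1 and Tfrc lower) where 36.2% of all transcripts were called, 16.1% higher and 20.1% lower, and in MIA also 6 of 10 (Trf and 3 Cp rows higher, Blvrb and Tfrc lower) where 35.6% were, 13.1% higher and 22.5% lower. From E17 to P7 in MIA no member was called (2.39% of all transcripts). The unadjusted limma p was under 0.05 for 4 members, beside 1793 (12.6%) of all transcripts. From P20 to P60 none was called either in Saline (3.51% of all) or in MIA (2.60%). The unadjusted p was under 0.05 there for 1 and 2 members, beside 2334 (16.4%) and 2509 (17.6%) of all transcripts. The P20 libraries had high Xist and no Y-linked signal, whereas those of E17 and of P7, except P7 MIA library 2, held RNA of both sexes, so sex and age cannot be told apart in this step.

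**Figure D4:**
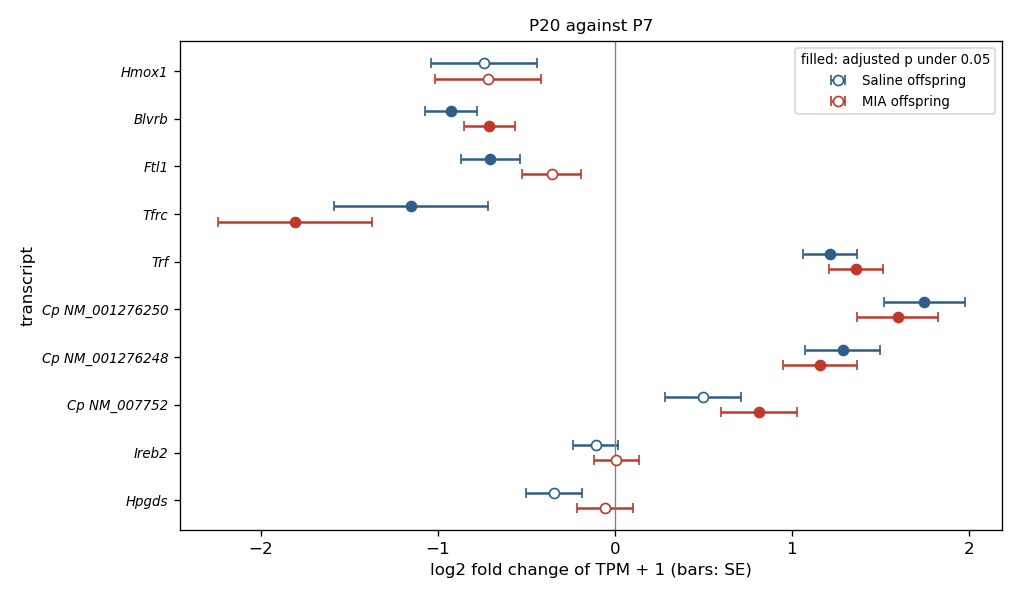
Change from P7 to P20 in log2 of TPM + 1 (bars: SE) for the 10 member transcripts, blue for Saline and red for MIA, filled where the limma adjusted p was under 0.05. Trf and Cp lie to the right of 0 and Hmox1, Blvrb, Ftl1 and Tfrc to the left in both.

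Whether maternal immune activation altered these genes was compared at each age. No member was called, nor was any of the 14225 transcripts (0% called at each of E17, P7, P20 and P60 on control chow). At an unadjusted p under 0.05 there was 1 member at E17 (Cp NM_001276250, 1.82, 0.89 and 2.14 TPM in MIA against 1.26, 0.37 and 0.90 TPM in Saline, a difference of 0.50 ± 0.23) and 0 at the later ages, beside 585, 335, 457 and 256 of all transcripts. Differences between MIA and Saline ranged over the members from -0.30 to 0.50 at E17, -0.28 to 0.47 at P7, -0.19 to 0.21 at P20 and -0.24 to 0.11 at P60. The standard errors were 0.13 for Ireb2 to 0.44 for Tfrc. Ftl1 at P60 was the 1 member there whose groups did not overlap, at 1291, 1428 and 1468 TPM in MIA + CTRL against 1550.2 to 1836 TPM in Saline + CTRL, with a difference of -0.24 ± 0.17 (limma adjusted p = 1, and 5.93% of all transcripts did not overlap). The age steps themselves did not differ between MIA and Saline for any member in limma (0% of all called, with 0 members at an unadjusted p under 0.05 and 275, 452 and 473 transcripts in all).

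Repopulation was compared with control chow within each maternal treatment. In Saline offspring 6 of 10 member rows passed when MG-REP was set against CTRL, where 26.7% of all transcripts were called, 11.9% higher and 14.9% lower: Blvrb rose, and Hpgds, Trf and the 3 Cp rows fell. That count was 3 without Saline + MG-REP library 1, where 2460 of all 14225 transcripts were called. It was 2, Blvrb and Hpgds, with the compared groups alone, where 1911 transcripts were called. In MIA offspring none was called (0.555% of all), with unadjusted p under 0.05 for 1 member, Hmox1, and for 882 transcripts in all. At P60 every MG-REP library carried the Xist-high pattern while 4 of 6 CTRL libraries did not, so sex and repopulation are partly confounded. The difference between both arms was called for 3 of 10 member rows, Blvrb, Hpgds and 1 Cp row, where 10.5% of all transcripts were called, 4.42% higher and 6.09% lower. With a covariate for Xist these 3 differences were still called, and in Saline the calls of Blvrb, Hpgds, Cp NM_001276250 and Cp NM_007752 held, whereas those of Cp NM_001276248 (adjusted p = 0.062) and Trf (0.320) were lost.

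Blvrb in Saline + MG-REP stood near its level in young microglia. The libraries held 49.7, 39.0 and 40.8 TPM against 25.8, 22.9 and 27.0 TPM in Saline + CTRL, and those of E17 and P7 Saline had held 39.9 to 51.9 TPM. It rose by 0.75 ± 0.15 (limma adjusted p = 0.00038). In MIA + MG-REP the libraries held 23.7, 25.8 and 23.8 TPM, beside 23.2, 28.6 and 25.7 TPM in MIA + CTRL, with a change of -0.07 ± 0.15. The difference between both changes, MIA minus Saline, was -0.82 ± 0.21 (adjusted p = 0.010, and 0.053 with median-ratio scaling).

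Hpgds fell by the largest amount of any member in Saline. Libraries of Saline + MG-REP held 211, 260.4 and 216 TPM and those of Saline + CTRL 492, 419 and 633 TPM, so that the groups were far apart and the mean stood at 0.446 of control. The change was -1.15 ± 0.16 (limma adjusted p = 4.97e-06). Repopulated MIA libraries held 432, 432 and 371 TPM against 434, 469 and 468 TPM, a change of -0.15 ± 0.16 that was not called. The effect of repopulation differed between MIA and Saline by 1.00 ± 0.22 (adjusted p = 0.0043, and 0.066 with median-ratio scaling).

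Cp and Trf followed Hpgds in direction. Cp NM_001276250 read 3.30, 5.03 and 5.23 TPM in Saline + MG-REP against 8.0 to 10.8 TPM in Saline + CTRL, a fall of 0.91 ± 0.23 (limma adjusted p = 0.0040), and 12, 10.1 and 8.75 TPM in MIA + MG-REP against 8.08 to 11.9 TPM in MIA + CTRL. The difference of the changes was 1.01 ± 0.32 (adjusted p = 0.045), and it was lost when any of 7 of the 12 libraries was left out (adjusted p up to 0.149, without Saline + MG-REP library 1). NM_001276248 fell by 0.70 ± 0.21 and NM_007752 by 0.64 ± 0.21 in Saline (adjusted p = 0.014 and 0.028). Without Saline + MG-REP library 1 their adjusted p were 0.104 and 0.195. Both calls were also lost without Saline + CTRL library 1, and that of NM_007752 without Saline + CTRL library 3 or Saline + MG-REP library 3.

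Trf held 1330.5, 1838 and 1989 TPM in Saline + MG-REP against 2071, 2284 and 2454 TPM in Saline + CTRL, without overlap. The fall of 0.42 ± 0.15 (limma adjusted p = 0.045) was lost without Saline + MG-REP library 1, where it was -0.24 (adjusted p = 0.330), without Saline + CTRL library 2 or 3, under the covariate for Xist and under scaling by median ratios. In MIA + MG-REP Trf stood at 2529, 2461 and 2337 TPM against 1891 to 2345 TPM in MIA + CTRL, a change of 0.17 ± 0.15. The difference of the changes, 0.59 ± 0.22, did not pass (adjusted p = 0.091).

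The remaining members did not pass in either arm. Hmox1 held 209, 216 and 182 TPM in Saline + MG-REP and 141, 240.1 and 158 TPM in MIA + MG-REP, the lowest group means of the series, with changes of -0.59 ± 0.30 in Saline (limma adjusted p = 0.156) and -0.84 ± 0.30 in MIA (adjusted p = 0.407). Ftl1 held 2352, 2270.2 and 2010.1 TPM in Saline + MG-REP, each above the highest Saline + CTRL library (1836 TPM), with a change of 0.42 ± 0.17 (adjusted p = 0.064). Tfrc held 69.0 to 78.2 TPM in Saline + MG-REP and 83.1 to 107 TPM in MIA + MG-REP, and the endothelial sum was lowest in Saline + MG-REP as well (356 to 726 TPM, against 929 to 2068 TPM in CTRL libraries).

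**Figure D5:**
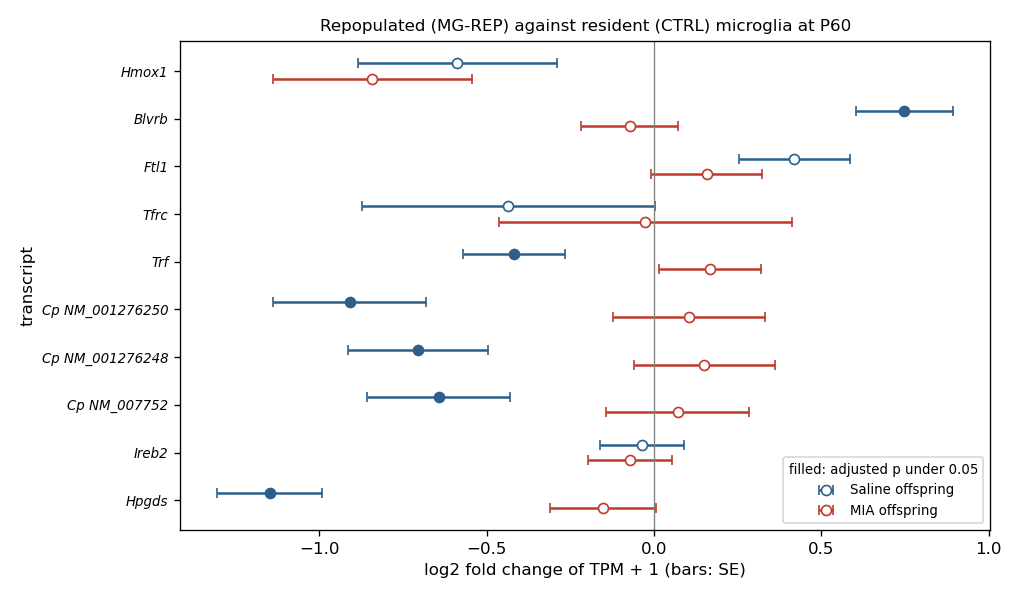
Change from CTRL to MG-REP at P60 in log2 of TPM + 1 (bars: SE) for the 10 member transcripts, blue for Saline and red for MIA, filled where the limma adjusted p was under 0.05. In Saline, Blvrb is higher and Trf, Cp and Hpgds are lower, while no red point is filled.

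Set directly against each other, the repopulated groups differed in 6 of 10 member rows, where 22.0% of all transcripts were called, 10.9% higher and 11.0% lower. In MIA + MG-REP, Hpgds was higher by 0.84 ± 0.16, Cp NM_001276250 by 1.04 ± 0.23, Cp NM_001276248 by 0.96 ± 0.21 and Trf by 0.53 ± 0.15, and Blvrb was lower by 0.79 ± 0.15 and Ftl1 by 0.51 ± 0.17 (limma adjusted p = 0.00033, 0.0016, 0.0016, 0.015, 0.00029 and 0.030). The Trf call was lost without Saline + MG-REP library 1 or MIA + MG-REP library 1. The Ftl1 call was lost without library 1 or 2 of Saline + MG-REP or library 1 or 3 of MIA + MG-REP, with adjusted p up to 0.120. This comparison shares its Saline + MG-REP libraries with those above and is not separate evidence. The libraries of all 4 groups were not balanced in other cells: border macrophage markers summed to 1341 to 2373 TPM in Saline + MG-REP, 694 to 868 TPM in MIA + MG-REP and 885 to 1197 TPM in CTRL, and microglial markers were lowest in Saline + MG-REP. Their part in these differences was not tested. Without library 2 of Saline + MG-REP, rich in neutrophil and monocyte markers, the changes of Hpgds (-1.24), Cp NM_001276250 (-0.98) and Blvrb (0.82) in Saline were larger than with it. Without library 1, with the highest border macrophage sum, they were smaller, at -1.09, -0.74 and 0.64, and still called (limma adjusted p = 7.35e-05, 0.039 and 0.0050). Without library 3 the changes of Hpgds, Cp NM_001276250 and Blvrb were -1.11, -1.01 and 0.78.

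The wider iron, heme, oxidative stress and prostaglandin lists held 73 transcripts beside the members. From P7 to P20, 32 of them were called in Saline, 14 higher and 18 lower (43.8%, beside 36.2% of all transcripts, with a median change of -0.07 beside -0.02). In MIA 29 were called, 8 higher and 21 lower (39.7%, beside 35.6%, with a median of -0.05 beside -0.09). Both shares lay near those of all transcripts. Higher in both were Cpox, an enzyme of heme synthesis (from 26.6 to 89.9 TPM in Saline, 1.74 ± 0.21), and Slc25a37, mitoferrin, which carries iron into mitochondria (from 49.0 to 128 TPM, 1.37 ± 0.15). Ptges, a prostaglandin E synthase, was lower in both (from 19.4 to 6.05 TPM in Saline, -1.54 ± 0.42). Between P20 and P60, rows of the transcription factors that control Hmox1 were lower on control chow. Bach1, its repressor, fell by 0.87 ± 0.13 in Saline and 0.81 ± 0.13 in MIA. Nfe2l2 NM_010902, a transcript of its activator NRF2, fell by 0.95 ± 0.18 and 0.74 ± 0.18. The limma adjusted p ran from 0.00055 to 0.029, where 3.51% and 2.60% of all transcripts were called. The other Nfe2l2 row was called in neither. The P20 libraries were all Xist-high and 4 of 6 CTRL libraries were not, so sex and age are partly confounded here too. With the Xist covariate Bach1 passed in both and Nfe2l2 NM_010902 in Saline (-1.10 ± 0.23, adjusted p = 0.022), while in MIA the latter was -0.89 ± 0.23 (adjusted p = 0.071). In Saline both calls were lost with the compared groups alone (0.080 and 0.118). Srxn1, sulfiredoxin, a target of NRF2, fell by 2.21 ± 0.29 in Saline and fell by 1.42 ± 0.29 in MIA from E17 to P7. None of the 73 was called between MIA and Saline at E17, P7, P20 or P60 on control chow.

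For repopulation in Saline 22 of the 73 were called, 12 higher and 10 lower (30.1%, near the 26.7% of all transcripts, with a median change of -0.09 beside -0.14), and in MIA 0 in either direction. Slc40a1, ferroportin, the exporter of iron, fell from 203 ± 21.8 TPM (SD, n = 3) to 57.2 ± 16.3 TPM in Saline (-1.84 ± 0.17, limma adjusted p = 1.20e-08) and stood at 196 ± 10.1 and 160.1 ± 11.4 TPM in MIA + CTRL and MIA + MG-REP. Slc25a37 fell by 1.38 ± 0.15 and Abcg2, a transporter that exports porphyrins, by 1.13 ± 0.23. Ptgs2, a cyclooxygenase that makes the substrate of Hpgds, rose from 43.4 to 435 TPM in Saline (3.29 ± 0.30). It was 39.8 TPM in MIA + CTRL and 60.3 TPM in MIA + MG-REP. Prdx1, a peroxiredoxin, rose as well (1.11 ± 0.14). The change differed between MIA and Saline for 11 of the 73 (15.1%, beside 10.5% of all), among them Slc40a1 by 1.55 ± 0.24, Slc25a37 by 1.29 ± 0.21, Ptgs2 by -2.70 ± 0.42 and Prdx1 by -1.21 ± 0.20 (adjusted p from 0.00011 to 0.00018).

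Other transcripts followed the members closely over the 10 group means of log2 of TPM + 1, given here as Pearson's r without a test, since groups share libraries' depth and age. Nearest to Hmox1 were Ywhaz (0.988) and Aff4 (0.982), and to Ftl1 Sys1 (0.980) and Cd5 (0.980). Blvrb was nearest to Rfwd3 (0.997) and Arhgef39 (0.994), and Tfrc to Tram2 (0.985) and Plppr1 (0.982). For Trf they were H2-DMb1 (0.992) and Gngt2 (0.991), for Cp NM_001276250 Ezh1 (0.996) and Apba1 (0.992), for Ireb2 Rlf (0.992) and Ube2g1 (0.985), and for Hpgds Slamf1 (0.972) and Ebag9 (0.967). Among the members, Trf ran with Cp NM_001276250 (r = 0.968) and against Ftl1 (r = -0.923) and Blvrb (r = -0.911), while Hpgds was not aligned with Ftl1 (r = 0.206) or Blvrb (r = 0.029). The authors' own clustering had placed Hmox1, Ftl1, Tfrc, Blvrb and Ireb2 in its IM module, Trf and the 3 Cp rows in AM and Hpgds in MIA-IM. These modules were made from the same libraries and add no independent evidence.

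The promoters of Blvrb, Cp, Ftl1, Hpgds, Ireb2 and Tfrc (9 RefSeq entries of 6 genes, GRCm38.p6), but not those of Hmox1 and Trf, were searched on both strands for TGACNNNGC, the core letters of the antioxidant response element. None of the 9 held it, against 12.4% of 32851 promoters, which says only that these letters are absent from those windows.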

How the data were processed

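Poly(A) RNA of CD11b+ bead-isolated microglia (30 libraries, 10 groups of 3) had been sequenced by the authors from non-stranded TruSeq libraries as short single-end reads, aligned with Rsubread to mm10, counted with featureCounts on a UCSC annotation and filtered on low counts. The deposited values are TPM for 14225 transcripts, computed by the authors, with the formula not given in the sources used here; they sum to 995495 to 998012 per library. Counts were not used here, so the edgeR test of the study was replaced by limma 3.58.1 (R 4.3.3) on log2 of TPM + 1, with a mean-variance trend, 1 model of 10 group means (20 residual degrees of freedom), two-sided tests and Benjamini-Hochberg adjustment over all 14225 transcripts. A call is an adjusted p under 0.05. The fit was tested on simulated data.

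The members and the wider and marker lists were chosen with earlier results of these data known. From the wider lists the text names from among the 3 largest rises and 3 largest falls called in each contrast, and for each member the 2 transcripts of other genes with the highest correlation over group means, among those reaching a group mean of 5 TPM. Of 19 contrasts, 2 (P60 against E17) were added after the values were seen. Alternatives were a pseudocount of 0.1 TPM, a mean of at least 1 TPM, median-ratio scaling, a replicate block, the compared groups alone, an Xist covariate within P60 and for P60 against P20, and each library left out. Same-numbered libraries deviated together (correlations 0.238, 0.104 and 0.132) in P20 Saline and MIA, where the block left 0 calls as before. Overlapping genes and hairpin letters came from GENCODE M21. Sample columns left unmapped numbered 0.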

Additional observations from a re-analysis of the deposited data

Results flagged for a closer look

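The effect of repopulation on 3 member transcripts differed between MIA and Saline offspring by the interaction term of the limma fit. For Hpgds the difference, MIA minus Saline, was 1.00 ± 0.22 (adjusted p = 0.0043). For Blvrb it was -0.82 ± 0.21 (adjusted p = 0.010), and for the Cp transcript NM_001276250 it was 1.01 ± 0.32 (adjusted p = 0.045). Each difference came from the Saline arm, where the changes were -1.15, 0.75 and -0.91, beside -0.15, -0.07 and 0.11 in the MIA arm. Leaving out any 1 of the 12 libraries kept the calls for Hpgds (0.84 to 1.13) and Blvrb (-0.89 to -0.72), and that of Cp was lost in 7 of the 12. With median-ratio scaling the differences were 0.92 for Hpgds (adjusted p = 0.066) and -0.89 for Blvrb (0.053), no longer called.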

How the results depend on the processing

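Of 45 calls of a member row in a contrast, 31 held under every alternative and with each library left out in turn. No change of a called or named member reversed its direction. The 45 include the calls of P60 against E17, added after the values were seen, and Cp rows that are not independent. None of the 3 called differences between the repopulation effects was among the 31. For MG-REP against CTRL in Saline only Blvrb and Hpgds were. With only the compared groups in the fit, 2 member rows instead of 1 were called from E17 to P7 in Saline (Hmox1, adjusted p = 0.011, joined Cp NM_007752), Hmox1 passed from P7 to P20 in Saline (0.012), and 2 instead of 6 were called for MG-REP against CTRL in Saline, where Cp NM_001276250 had an adjusted p of 0.056, NM_001276248 of 0.092, NM_007752 of 0.204 and Trf of 0.237. Median-ratio scaling left 1 called difference between the repopulation effects of MIA and Saline in place of 3, that of Cp, since Blvrb (-0.89) and Hpgds (0.92) had adjusted p of 0.053 and 0.066. It also ended the calls of Ftl1 (-0.62, 0.0701) and Trf (0.42, 0.179) between the repopulated groups, and that of Trf for MG-REP in Saline (-0.28, 0.379). With the compared groups alone Trf was also lost between the repopulated groups (0.088). The Cp difference was lost with the compared groups alone (0.067) and with a pseudocount of 0.1 TPM (0.133). Leaving out 1 library gave 0 to 1 member rows from E17 to P7 in Saline and as few as 3 for MG-REP in Saline, without Saline + MG-REP library 1. With the compared groups alone, 519 of all 14225 transcripts were called from E17 to P7 in Saline. With median-ratio scaling 1271 were called for the difference between the repopulation effects. The fewer degrees of freedom of the smaller fits are part of their construction. The cause of the other changes was not tested.

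Counts over all transcripts moved more. From P20 to P60 in Saline 499 were called, 5 with the compared groups alone and 115 with the Xist covariate, and in MIA 370 became 111 with that covariate. From E17 to P7 in MIA 340 became 10 with the compared groups alone. For MG-REP in Saline 3805 became 1911 with the compared groups alone and 2460 without Saline + MG-REP library 1, the share higher moving from 44.3% to 57.5% with median-ratio scaling. In MIA 79 became 30 with the Xist covariate. Median-ratio scaling moved the share higher from P7 to P20 in MIA from 36.7% to 49.2%, and shifted the median of all transcripts by less than 0.1 in each contrast. With a replicate block, 7 member rows instead of 6 were called for MG-REP in Saline (Ftl1 passed, adjusted p = 0.025) and 4 instead of 3 for the difference between arms. In no other pair of groups were all same-numbered correlations over 0.1, and in all 12 of 27 were (-0.53 to 0.66). Single ones were larger than at P20, such as 0.656 for library 2 at E17 and 0.634 for library 3 of the CTRL groups. The labels do not say whether same-numbered libraries belong together. TPM leave depth as an estimate, and Cp at E17 rests on few reads.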
